A study of Caenorhabditis elegans with 36 samples.

Results

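F57F4.1, C15H11.1 and *clp-8* (F44F1.3) are 3 genes that the study named among transcripts raised by heat in the nematode *C. elegans* and measured again by quantitative PCR as spermatogenesis factors. That PCR used RNA of isolated hermaphrodites and of dissected distal gonad arms. The study reported a rise with heat in both, and did not attribute the rise to males in the mRNA-seq samples. The name F57F4.11 was given with these genes, which makes 4 names. The study lists primers for F57F4.1 and PCR cycle values under F57F4.11, so both names may mean the same gene. Counts were found for 3 of the 4 names among 45904 gene names in the files. F57F4.11 has no counts there and no entry in the annotation used here, so nothing is reported for it. The mRNA libraries led to the choice of these genes, so that every mRNA comparison of them is given as values with no test, and the tests are on their small RNAs.

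The wild-type strain was N2 and the mutant carried *mut-16(pk710)*. Synchronised larvae of both were grown at 20°C or at 25°C and collected whole as adults, the cooler cultures after some 68 h and the warmer ones after some 48 h, so an effect of temperature cannot be told apart from one of the time of harvest. Each of the 4 combinations had 3 libraries of mRNA and 3 of small RNAs, which the labels call biological replicates. In whole animals, fewer cells of a type and less RNA per cell cannot be told apart.

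In *C. elegans*, MUT-16 is the scaffold of Mutator foci, perinuclear germline granules where RNA-dependent RNA polymerases copy target transcripts into 22G small RNAs. Argonaute proteins loaded with 22G RNAs silence some genes and protect the expression of others, and the Argonautes ALG-3 and ALG-4 act on spermatogenesis genes. A hermaphrodite makes sperm as a larva and then only oocytes, so sperm transcripts are scarce in adults. C15H11.1 is annotated as a major sperm protein, the family whose best known members form the cytoskeleton of the crawling nematode sperm. F57F4.1 is annotated with an acyl-CoA thioesterase type HotDog domain, a fold found in enzymes that release fatty acids from coenzyme A. *clp-8* encodes a protein with a calpain catalytic domain, the cysteine protease domain of the calpains.

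F57F4.1 and C15H11.1 both lie on the forward strand of chromosome V in the WBcel235 assembly, F57F4.1 at chrV:6390463-6392566 with 7 exons and C15H11.1 at chrV:14393804-14394463 with 3 exons. The 240 bases before each annotated start are shown because the mRNAs of both had 0 counts in the same group and their highest level in the same group (chrV:6390223-6390462 and chrV:14393564-14393803). Capitals mark GTTTC, the core of the motif found upstream of piRNA genes, which was searched because a piRNA gene, 21ur-13977, lies inside C15H11.1 (chrV:14393808-14393828, 4 bases after the annotated start of C15H11.1), and its 21 bases are given with them.

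F57F4.1 upstream: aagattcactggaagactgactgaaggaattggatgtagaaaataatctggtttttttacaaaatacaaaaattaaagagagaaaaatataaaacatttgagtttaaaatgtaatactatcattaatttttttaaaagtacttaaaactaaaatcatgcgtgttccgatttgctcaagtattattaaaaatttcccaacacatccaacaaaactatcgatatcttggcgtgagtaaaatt

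C15H11.1 upstream: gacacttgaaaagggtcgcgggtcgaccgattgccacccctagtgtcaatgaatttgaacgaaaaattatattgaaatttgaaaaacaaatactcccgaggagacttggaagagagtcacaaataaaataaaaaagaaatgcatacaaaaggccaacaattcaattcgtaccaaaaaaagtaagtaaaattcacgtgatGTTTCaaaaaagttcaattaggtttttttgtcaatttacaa

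21ur-13977: tttgaatattctgactctgat

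The GTTTC in the C15H11.1 window begins 41 bases before the gene and 45 bases before 21ur-13977, and the F57F4.1 window holds none on either strand. GTTTC occurred on one or the other strand in 55.0% of the windows of the same length before 19970 protein-coding genes. GATAA, the core bound by GATA factors, was in 50.9% of all windows on either strand, and the heat shock element pairs TTCNNGAA and GAANNTTC, which read the same on both strands, were in 14.4% and 15.1%. F57F4.1 and C15H11.1 hold none of these 3 in their windows. The window of *clp-8*, searched in the same way and not printed, holds GATAA once on the reverse strand, 167 bases before the gene, and GAANNTTC at 212 and 49 bases before it, but neither TTCNNGAA nor GTTTC. 21ur-13977 had 0 counts in every library of both assays, while 1734 of 15363 piRNA genes had a count in at least 1 small RNA library. The counts carry neither the length nor the strand of a read, so a read from this stretch cannot be assigned to one gene or the other from these values.

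As a check of the genotype labels, the *mut-16* transcript itself (B0379.3) was at 105 to 127 RPM (counts per 1000000 counts of the library) in the 6 wild-type mRNA libraries and at 40.6 to 64.3 RPM in the 6 mutant libraries, with no overlap. Library totals lay between 15432009 and 34195602 counts for mRNA and between 4760502 and 19060841 counts for small RNAs, where the lowest was replicate 3 of wild-type at 25°C.

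All 3 genes were silent or nearly so in wild-type adults at 20°C and highest in *mut-16* adults at 25°C. The levels rose from wild-type at 20°C over wild-type at 25°C and then *mut-16* at 20°C to *mut-16* at 25°C for each gene. These mRNAs were rare in every group: the highest level of any of them in a library was 4.62 RPM.

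F57F4.1 had 0, 0 and 0 counts in the 3 wild-type libraries at 20°C, and at 25°C it had 5, 8 and 19 counts (0.231, 0.281 and 0.710 RPM). In *mut-16* it had 17, 42 and 24 counts at 20°C (0.814, 1.96 and 0.924 RPM) and 64, 121 and 158 counts at 25°C (4.15, 3.81 and 4.62 RPM). The group means were 0, 0.407 ± 0.264, 1.23 ± 0.634 and 4.19 ± 0.408 RPM (SD, n = 3) in that sequence. No 2 of the 4 groups overlapped in RPM. The share of all genes without such overlap was not counted, here or below. A floor of 3 counts over the wild-type libraries at 20°C stood in for their 0 counts. Against it, pooled F57F4.1 was 8.70-fold higher in wild-type at 25°C, 25.4-fold in *mut-16* at 20°C and 88.1-fold in *mut-16* at 25°C. These values leave out counting error in the higher group, so they are not strict lower limits. Between the temperatures in *mut-16* the ratio of pooled counts per total was 3.46, with a 95% counting interval of 2.72 to 4.46. Such intervals are exact (Clopper-Pearson) and cover counting error only.

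C15H11.1 also had 0 counts in all 3 wild-type libraries at 20°C, and it had 5, 16 and 10 counts in wild-type at 25°C (0.231, 0.562 and 0.374 RPM). In *mut-16* it had 10, 20 and 18 counts at 20°C (0.479, 0.935 and 0.693 RPM) and 37, 72 and 92 counts at 25°C (2.40, 2.27 and 2.69 RPM). Its means were 0, 0.389 ± 0.166, 0.702 ± 0.228 and 2.45 ± 0.217 RPM, and wild-type at 25°C overlapped with *mut-16* at 20°C, so that the order of these neighbours is not larger than the spread. Against the same floor, and again without counting error, it was 8.43-fold higher in wild-type at 25°C, 14.7-fold in *mut-16* at 20°C and 51.7-fold in *mut-16* at 25°C. The ratio between the temperatures in *mut-16* was 3.51 (2.55 to 4.92).

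*clp-8*, at chrI:13254141-13257729 on the forward strand with 8 exons, was the only one of the 3 genes with a read in wild-type at 20°C, where it had 0, 3 and 0 counts. It had 8, 9.72 and 8 counts in wild-type at 25°C (0.369, 0.342 and 0.299 RPM), then 31.9, 20.9 and 23 counts in *mut-16* at 20°C (1.52, 0.975 and 0.886 RPM) and 60, 110 and 91.4 counts in *mut-16* at 25°C (3.89, 3.46 and 2.67 RPM). Counts that are not whole were found in 4 of 12 mRNA libraries and arise where the counting shared reads between sequences. The means were 0.0539 ± 0.0933, 0.337 ± 0.0353, 1.13 ± 0.346 and 3.34 ± 0.617 RPM, with no overlap between groups. With only 3 counts in the reference group the ratios were loosely bounded, at 7.00 (2.17 to 36.5) for wild-type at 25°C, 23.2 (7.67 to 115) for *mut-16* at 20°C and 67.2 (22.7 to 327) for *mut-16* at 25°C. The ratio between the temperatures in *mut-16* was 2.90 (2.22 to 3.77).

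**Figure D1:**
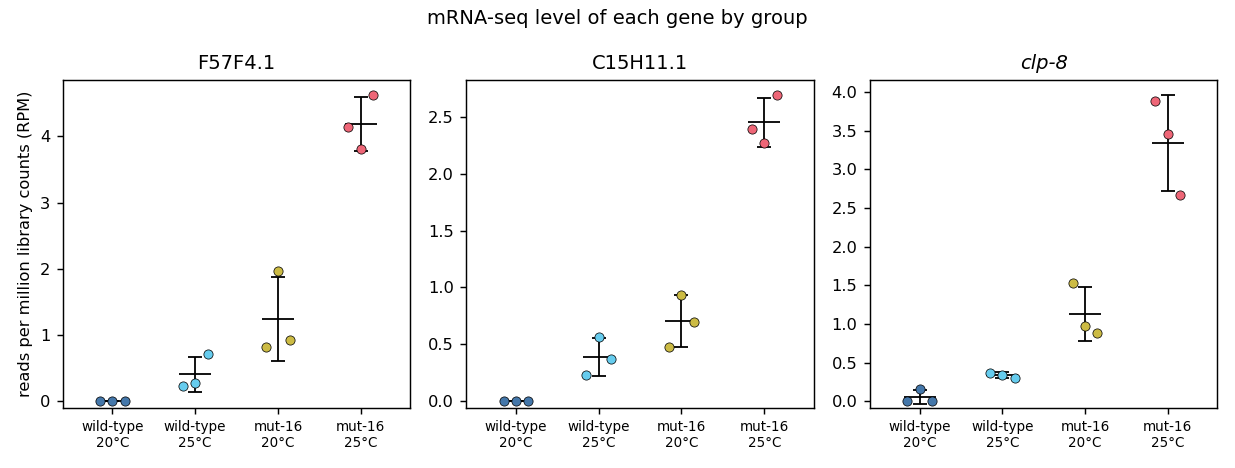
mRNA level of each gene (vertical axis, RPM) in the 4 groups, with points for the 3 libraries, a bar at the mean and whiskers of 1 SD. Each gene is at or near 0 in wild-type at 20°C and highest in *mut-16* at 25°C, where the libraries of F57F4.1 lie between 3.81 and 4.62 RPM.

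RPM does not allow for gene length. Divided by the exon length of each gene, the mean in *mut-16* at 25°C was 5.55 RPM per kilobase for C15H11.1 (442 nt), 2.76 for F57F4.1 (1519 nt) and 1.67 for *clp-8* (2003 nt), so that on this scale C15H11.1 had the highest level.

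At 25°C, the ratio of *mut-16* to wild-type in pooled counts per total was 10.1 for F57F4.1 (7.04 to 15.0), 9.60 for *clp-8* (6.33 to 14.8) and 6.13 for C15H11.1 (4.18 to 9.25). No library of one genotype overlapped with the other, and the share of all genes for which this holds was not counted. The fit across all genes with edgeR gave log2 fold changes of 3.12 for F57F4.1 (standard error 0.63), 3.05 for *clp-8* (0.57) and 2.40 for C15H11.1 (0.48). Over the 14623 genes tested the median was 0.16, and 41.2% were called higher and 32.5% lower at an adjusted p threshold of 0.05 (quasi-likelihood test, Benjamini-Hochberg). The libraries of this comparison were among those from which the genes were chosen, so nothing is read from these values beyond their size. Without replicate 3 of wild-type at 25°C, the log2 fold change of F57F4.1 was 3.78. Higher genes made up 55.9% of the called genes with TMM scaling and 73.0% with library totals, which moved the median of all genes to 0.37.

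Small RNAs on these genes did not follow 1 pattern. At 20°C the loss of *mut-16* went with more small RNAs on C15H11.1 and F57F4.1, whereas *clp-8* had fewer in the mutant at both temperatures. F57F4.1 passed the filter on low counts only through its *mut-16* libraries, so its call is not independent of that filter. In wild-type the small RNAs on C15H11.1 and *clp-8* were higher at 25°C, though *clp-8* lost its call with microRNA scaling. F57F4.1 passed the threshold too, but its libraries overlapped between the temperatures and its call was lost in most alternatives.

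C15H11.1 had 1, 5.28 and 2 small RNA counts in wild-type at 20°C (0.1004, 0.463 and 0.209 RPM) and 44, 24.1 and 7 counts in wild-type at 25°C (2.31, 2.19 and 1.47 RPM). In *mut-16* it had 112, 72 and 54 counts at 20°C (6.25, 7.15 and 5.36 RPM) and 94, 86 and 85 counts at 25°C (11.9, 9.41 and 9.61 RPM). None of the 4 groups overlapped, and the order was that of its mRNA. F57F4.1 had 2, 9 and 3 counts in wild-type at 20°C (0.201, 0.789 and 0.313 RPM) and 19.3, 17 and 3.02 counts in wild-type at 25°C (1.01, 1.54 and 0.634 RPM). In *mut-16* it had 32.3, 13 and 15 counts at 20°C (1.80, 1.29 and 1.49 RPM) and 20, 16 and 11 counts at 25°C (2.53, 1.75 and 1.24 RPM). Neighbouring groups overlapped, and wild-type at 20°C lay below both *mut-16* groups.

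*clp-8* had more small RNAs in wild-type than in the mutant, with 36.1, 39.1 and 33.3 counts at 20°C (3.62, 3.43 and 3.47 RPM) and 152, 103 and 44.7 counts at 25°C (7.99, 9.38 and 9.40 RPM). In *mut-16* it had 21.8, 10.0 and 10.0 counts at 20°C (1.22, 0.994 and 0.996 RPM) and 14.2, 25.7 and 14.3 counts at 25°C (1.80, 2.81 and 1.61 RPM). Again no groups overlapped, and the share of all genes for which this holds was not counted. None of its small RNA counts was whole in any of the 12 libraries.

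**Figure D2:**
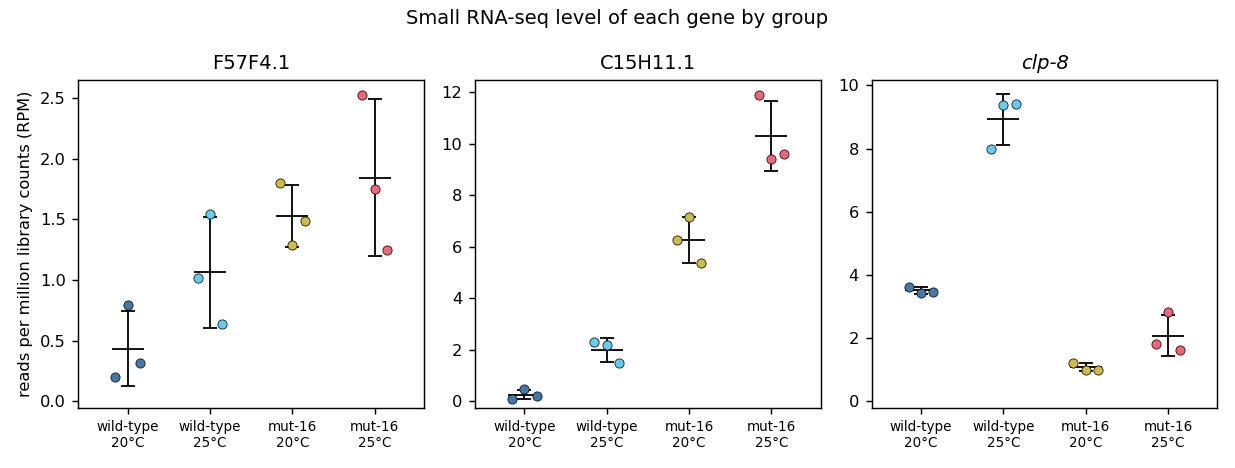
Small RNA level of each gene (vertical axis, RPM) in the 4 groups, with points for the 3 libraries, a bar at the mean and whiskers of 1 SD. C15H11.1 climbs to between 9.41 and 11.9 RPM in *mut-16* at 25°C, while *clp-8* stays at or below 2.81 RPM in *mut-16* and reaches 9.40 RPM in wild-type.

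At 20°C, small RNAs were higher in *mut-16* for C15H11.1 (log2 fold change 4.64, standard error 0.78, adjusted p = 1.32e-08) and F57F4.1 (1.86, 0.59, 0.00242) and lower for *clp-8* (-1.56, 0.38, 6.74e-05), by edgeR over 16025 genes. Of those genes 33.6% were higher and 46.8% lower, and their median log2 fold change was -0.45. F57F4.1 entered this fit only through its *mut-16* libraries, where it was higher. Its call is therefore not independent of the filter on low counts. At 25°C, C15H11.1 was higher (2.34, 0.46, 9.17e-07) and *clp-8* lower (-2.02, 0.41, 2.28e-06), and F57F4.1 had a log2 fold change of 0.76 (0.46) that did not pass the threshold (adjusted p = 0.118). At this temperature 31.3% of the genes were higher and 47.1% lower, with a median of -0.58. Being called was thus common in both comparisons. C15H11.1 lay above 99.7% of the genes at 20°C and above 99.0% at 25°C, while *clp-8* lay above 35.6% and 31.3%, within the bulk of all genes. Replicate 2 of wild-type at 20°C had the highest level of C15H11.1 and F57F4.1 in its group, and in its absence their log2 fold changes at this temperature were 5.31 and 2.61. All small RNA values are relative to the rest of the library. When counts of microRNA genes were used as the scaling, the median of all genes moved to -1.51 at 20°C and -2.45 at 25°C, and higher genes were 5.29% and 0.334% of the called genes in place of 41.8% and 40.0%. The call was then lost for F57F4.1 at 20°C (0.78, adjusted p = 0.279) and for C15H11.1 at 25°C (0.51, adjusted p = 0.274), and F57F4.1 at 25°C turned to -1.09.

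In wild-type, small RNAs were higher at 25°C than at 20°C for C15H11.1 (log2 fold change 3.07, standard error 0.64, adjusted p = 3.27e-05 by edgeR), *clp-8* (1.44, 0.33, 1.85e-04) and F57F4.1 (1.40, 0.58, 0.0422). Called genes were 20.2% higher and 17.1% lower of all genes tested, so that a call in the higher direction was less common here than between the genotypes. The call for F57F4.1 did not survive small changes: it was lost in 7 of 12 fits without 1 library, with adjusted p up to 0.19 and a log2 fold change of 1.05 without replicate 2 of wild-type at 25°C, and with DESeq2 (adjusted p = 0.0656), library totals (0.0574) and microRNA scaling (0.444). In a fit of only the wild-type groups F57F4.1 did not pass the filter and was not tested. Leaving out replicate 2 of the 20°C group gave 3.74 for C15H11.1 and 2.15 for F57F4.1. With microRNA scaling, C15H11.1 kept its call (2.31, adjusted p = 0.00165) and *clp-8* did not (0.67, adjusted p = 0.184). Higher genes were 54.2% of the called genes with TMM, 41.4% with library totals and 6.63% with microRNA scaling.

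In *mut-16*, the rise with temperature was smaller, at 0.78 (0.28, adjusted p = 0.0231 by edgeR) for C15H11.1, 0.98 (0.34, 0.0196) for *clp-8* and 0.29 (0.41, 0.668, no call) for F57F4.1. Of all genes, 8.29% were higher and 17.3% lower. The calls depended on single libraries: without replicate 3 of *mut-16* at 20°C or without replicate 2 of *mut-16* at 25°C neither C15H11.1 nor *clp-8* passed, C15H11.1 also lost its call without replicate 1 of either *mut-16* group (adjusted p = 0.0635 and 0.0955), and *clp-8* without replicate 2 of *mut-16* at 20°C (adjusted p = 0.0603). With microRNA scaling all 3 log2 fold changes turned negative, and higher genes were 0.456% of the called genes, against 32.4% with TMM. The difference between the 2 heat responses passed for C15H11.1, at -2.29 (0.63, adjusted p = 0.00411), among 5.70% of genes called higher and 12.6% called lower in this test. It did not pass for F57F4.1 (-1.11, 0.69, adjusted p = 0.267) or *clp-8* (-0.46, 0.39, adjusted p = 0.434).

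**Figure D3:**
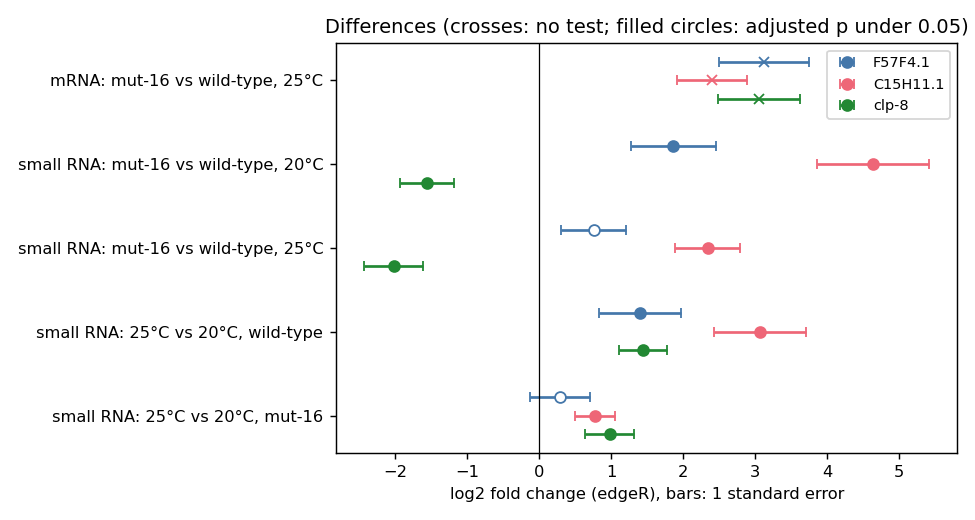
Log2 fold changes (horizontal axis) of the 3 genes in the 5 comparisons named on the vertical axis, with whiskers of 1 standard error, crosses for the mRNA values, which have no test, and filled circles where the adjusted p was under 0.05. *clp-8* lies at -1.56 and -2.02 in the small RNA comparisons of the genotypes, on the other side of 0 from its mRNA at 3.05.

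Among the 10 calpain genes, 9 were tested in mRNA-seq at 25°C, and 6 of them, *clp-8* included, were higher and 2 lower in *mut-16*, with a median log2 fold change of 0.35 beside 0.16 over all genes. Of all genes tested, 41.2% were higher and 32.5% lower. *clp-8* is counted among the 6 although these libraries were used in its choice. It was at 3.05, and the next in size was *clp-6* at 1.21 (0.24, adjusted p = 3.64e-06 by edgeR). *clp-3* (0.53), *clp-9* (0.49), *clp-4* (0.35) and *tra-3*, a calpain of the sex determination pathway (0.19), were also higher, *clp-7* (-0.67) and *clp-2* (-0.53) were lower, and *clp-1* was at -0.20 without a call. With library totals as the scaling *clp-2* lost its call (-0.32, adjusted p = 0.0648). *clp-10* had at most 1 count in an mRNA library and was not tested.

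In small RNA-seq at 25°C, 7 of the 10 calpain genes were lower and 2 higher in *mut-16* (median -1.36, all genes -0.58). Of all genes tested, 47.1% were lower and 31.3% higher. *clp-4* fell from 256 ± 20.4 to 4.15 ± 0.462 RPM (SD, n = 3; log2 fold change -5.89) and *clp-6* from 229 ± 27.5 to 4.26 ± 0.427 RPM (-5.70), both to a few RPM, as *clp-8* did from 8.93 ± 0.807 to 2.08 ± 0.645 RPM. Small RNA levels of *clp-4* and *clp-6* were close in every group, at 137 and 128 RPM in wild-type at 20°C. Both genes, like *clp-8*, had counts that were not whole, so these values may not be independent. Whether reads were shared among calpain genes was not tested. *clp-3* (-4.24) and *clp-9* (-3.29) also fell by more than *clp-8*, on the log2 scale, and *clp-1* (1.08) and *clp-7* (0.36) rose, though with microRNA scaling both fell (-0.81 and -1.52). *tra-3* was also lower (-0.55), at 19.4 ± 2.35 RPM in wild-type and 12.6 ± 0.153 RPM in *mut-16*. Of the 9 calpain genes tested in both assays, 6 were lower in small RNAs and higher in mRNA in *mut-16* at 25°C (*clp-3*, *clp-4*, *clp-6*, *clp-8*, *clp-9* and *tra-3*). Over all 12421 genes tested in both, 20.9% were. The mRNA libraries were used in the choice of *clp-8*, so its place among the 6 is not independent of that choice.

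**Figure D4:**
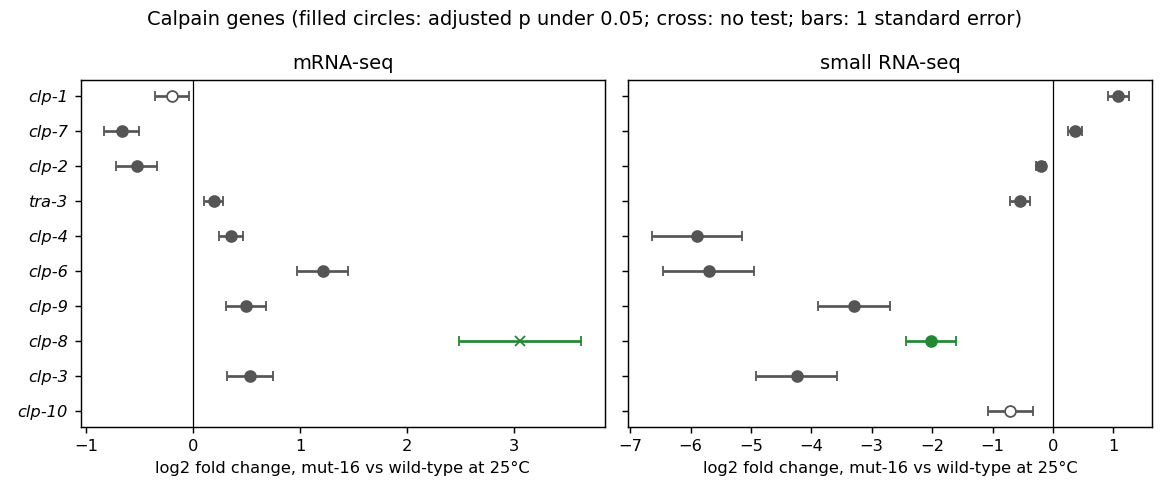
Log2 fold changes of the calpain genes between *mut-16* and wild-type at 25°C (horizontal axis), in mRNA-seq on the left and small RNA-seq on the right, with whiskers of 1 standard error, filled circles where the adjusted p was under 0.05 and a cross for the mRNA of *clp-8*, which has no test. *clp-8* (green) has the highest mRNA value, 3.05, and a small RNA value of -2.02, while *clp-4* and *clp-6* reach -5.89 and -5.70.

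Of the 18 protein-coding genes that are the 3 nearest on each side of the 3 loci, 12 were tested in mRNA-seq, and 4 were higher and 2 lower in *mut-16* at 25°C (with library totals as the scaling, 4 and 0), beside 41.2% and 32.5% of all genes. Next to F57F4.1, the gene *gfi-1* on the opposite strand overlaps its 3′ end by 30 nt and was at 449 ± 55.5 RPM in wild-type and 431 ± 202 RPM in *mut-16* at 25°C (SD, n = 3), with a log2 fold change of -0.26 (adjusted p = 0.403 by edgeR). F57F4.2, on the other side, had 0 counts in every library but those of *mut-16* at 25°C, where it had 1 to 3. On the sides of C15H11.1, C15H11.10 had at most 2 mRNA counts in a library and C15H11.13 at most 10. Next to *clp-8*, the SET domain gene ZK1053.4 was lower (-0.47, adjusted p = 0.00299), the SKICH domain gene F44F1.4 was higher (1.20, adjusted p = 1.88e-04) and *vet-6*, annotated as a very early transcript, was higher by 3.25 (adjusted p = 5.46e-09).

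In small RNA-seq, 14 of these 18 neighbours were tested, and 3 were higher and 8 lower in *mut-16* at 25°C (with microRNA scaling, 0 and 12), beside 31.3% and 47.1% of all genes. C15H11.13, which starts 580 nt beyond C15H11.1, was among the higher ones (2.01, adjusted p = 7.26e-05 by edgeR), at 1.05 ± 0.514 RPM in wild-type and 4.70 ± 1.34 RPM in *mut-16* at 25°C (SD, n = 3). C15H11.10, which ends 248 nt before C15H11.1, was lower (-2.75, adjusted p = 0.00357). Around *clp-8*, F44F1.4 fell from 376 ± 18.4 to 2.49 ± 1.70 RPM (-7.16) and F44F1.6 from 18.4 ± 1.71 to 0.431 ± 0.233 RPM (-5.33), both by more than *clp-8* itself, and ZK1053.3 and ZK1053.4 were lower at -5.33 and -2.20. ZK1053.6, a magnesium transporter family gene, was higher in both assays, by 1.94 in mRNA (adjusted p = 0.00123) and by 1.87 in small RNAs (adjusted p = 5.51e-04).

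The sperm genes chosen by name (the *msp*, *spe*, *ssp* and *ssq* families with *fer-1*, *gsp-3* and *gsp-4*, 85 genes, none of them F57F4.1, C15H11.1 or *clp-8*) moved in the same direction in mRNA. In mRNA-seq at 25°C, 63 of 73 tested were higher and 4 lower in *mut-16* by edgeR, with a median log2 fold change of 2.39 against 0.16 over all genes. Of all genes tested, 41.2% were higher and 32.5% lower. The summed level of the 85 sperm genes was 198.5 to 214.3 RPM in wild-type at 20°C, 328 to 387 RPM in wild-type at 25°C, 668.3 to 820.5 RPM in *mut-16* at 20°C and 966 to 1025 RPM in *mut-16* at 25°C, the order of the 3 genes. The steps differed in size. With heat in *mut-16* the median log2 fold change of the sperm genes was 0.41 (all genes 0.15), while pooled ratios of the 3 genes, not on the log2 scale, were 2.90 to 3.51. The 3 sperm genes with the highest mean RPM, *spe-39* (-0.41), *spe-48* (-0.29) and *spe-44* (-0.32), were among the lower genes in *mut-16* at 25°C. In small RNA-seq the summed level of the 85 genes was lower in *mut-16*, unlike that of their mRNA. It was 559.1 to 590.2 RPM in wild-type and 515.5 to 559 RPM in *mut-16* at 20°C. At 25°C it was 752.2 to 802.3 RPM in wild-type and 496 to 543.1 RPM in *mut-16*. Counted by gene, however, 47 of 72 were higher and 8 lower in *mut-16* at 20°C (median 2.47 against -0.45 over all genes), and 44 and 10 at 25°C. Of all genes, 33.6% were higher and 46.8% lower at 20°C, and 31.3% and 47.1% at 25°C. With microRNA scaling the counts of sperm genes were 36 and 17 at 20°C but 3 and 26 at 25°C, where their median turned to -0.56. Of all 16025 genes, 548 were then higher and 9811 lower at 20°C, and 49 and 14640 at 25°C. With heat, 31 of the 72 sperm genes rose and 2 fell in small RNAs of wild-type (median 1.17), and 6 and 5 did in *mut-16* (median 0.13). These shares stand beside 20.2% and 17.1% of all genes in wild-type and 8.29% and 17.3% in *mut-16*. With microRNA scaling 14 of the sperm genes rose and 6 fell in wild-type, and 0 rose and 55 fell in *mut-16* (median -1.46, all genes -1.65). Of all 16025 genes, 480 then rose and 6755 fell in wild-type, and 57 rose and 12439 fell in *mut-16*.

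Markers of male somatic cells were low, and only *mut-16* at 25°C lay apart from the other groups, which overlapped. The summed level of 10 such genes (*lov-1*, *pkd-2*, the *cwp* genes, *klp-6*, *cil-7* and *try-5*) was 0.351 to 0.969 RPM in wild-type at 20°C, 0.830 to 1.09 RPM in wild-type at 25°C, 0.527 to 1.04 RPM in *mut-16* at 20°C and 2.14 to 2.75 RPM in *mut-16* at 25°C. The number of them at 0 in every library of a group was 3, 2, 3 and 1 in this order, and *cwp-3* was at 0 throughout. Of the 2 genes with enough counts for a test, *try-5*, a seminal fluid protease, was higher in *mut-16* at 25°C (1.46), and *klp-6* was at 0.09 without a call. Their part in the levels of the 3 genes was not tested.

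Of the markers of other cells in mRNA-seq at 25°C, all 10 oocyte genes were lower in *mut-16* (median -0.69; summed level 8454 to 8541 RPM in wild-type and 5924 to 6412 RPM in *mut-16*), among them the yolk receptor gene *rme-2* (-0.92). Of 10 muscle genes 7 were higher and 0 lower (median 0.58, 2192 to 2374 and 3591 to 4267 RPM), of 10 neuron genes 8 were higher and 1 lower (median 1.00, 217.3 to 232.6 and 311.2 to 317.5 RPM), and of 7 intestine genes 3 were higher and 2 lower (median 0.10). With library totals as the scaling, the genes called higher and lower were 0 and 8 for oocyte, 7 and 0 for muscle, 9 and 0 for neuron and 4 and 1 for intestine. Over all genes tested with TMM scaling, 41.2% were higher and 32.5% lower (median 0.16). All muscle, neuron, oocyte and intestine markers were present in every group. Their part in the levels of the 3 genes was not tested.

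Genes of the small RNA pathways themselves were mostly lower in mRNA of *mut-16* at 25°C, as the oocyte genes were. Of all genes tested, 41.2% were higher and 32.5% lower, with a median of 0.16. Of 8 genes around the Argonautes *alg-3* and *alg-4*, 2 were higher and 6 lower (median -0.70), with *csr-1*, the Argonaute that licenses germline transcripts, at -0.82. Of 10 Mutator genes, *mut-16* included, 0 were higher and 8 lower (median -0.55), with the nuclease gene *mut-7* lower at -0.56 and the polymerase gene *rrf-1* at -0.41 without a call (adjusted p = 0.0554 by edgeR). The next most abundant, *nyn-2*, was at 86.1 ± 1.7 RPM in wild-type and 97.1 ± 3.4 RPM in *mut-16* (SD, n = 3). With library totals the counts were 2 higher and 5 lower around the Argonautes and 1 higher and 6 lower for the Mutator genes.

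The tested genes most like each of the 3 in mRNA level, by Pearson's r of log2(RPM + 0.5) over the 12 libraries, differed in level. For F57F4.1 they were Y39G10AR.16 (r = 0.995), M05B5.1 (0.995), which encodes a tyrosine phosphatase domain, and *acs-15* (0.993), an acyl-CoA ligase gene. For C15H11.1 they were Y57G11C.5 (0.993), with a serpin domain, R148.7 (0.992) and *spe-54* (0.991), with a tyrosine phosphatase domain. For *clp-8* they were the collagen gene *col-154* (0.990), *pan-1* (0.989) and *kvs-5* (0.987), of which *pan-1* was at 21.9 RPM in wild-type at 20°C on average. Among the 3 genes themselves r was 0.978 between C15H11.1 and F57F4.1, 0.947 between *clp-8* and F57F4.1 and 0.944 between *clp-8* and C15H11.1. Many of the 14623 tested genes were closer. Of these, 139 had a higher r to C15H11.1 than F57F4.1 had, and 1001 a higher one than *clp-8* had. To *clp-8*, 558 had a higher r than F57F4.1 had. The 3 genes were also chosen from these libraries. The 12 points fall into 4 groups, which these values share.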

How the data were processed

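Whole-animal mRNA-seq and small RNA-seq libraries of wild-type and *mut-16* adults were used, 12 per assay. The ATAC-seq samples were not analysed here. The authors trimmed reads with Cutadapt, aligned them to genome WS258 with HISAT2 and to its transcriptome with Salmon, and deposited the estimated counts per gene, without normalization. Versions, strand and read length settings are not given in the sources used here. Values of 1060 gene names with several entries were summed.

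RPM is a count per 1000000 counts of the library. Counts were rounded and genes kept by filterByExpr were fitted with edgeR 4.0.16 (R 4.3.3, TMM, robust quasi-likelihood, one coefficient per group, all 12 libraries of an assay), with Benjamini-Hochberg adjustment over all genes and a threshold of 0.05. A standard error is the log2 fold change over the normal deviate of its p. The fit was tested on simulated data. Alternatives included DESeq2 1.42.0, other scalings and filters, the RE mark in mRNA library titles as a covariate, the replicate block and single libraries left out. Gene names came from the WBcel235 annotation and RefSeq, and sequences from the RefSeq WBcel235 genome. A rule set which genes could be named: calpain genes, neighbours, the 3 most abundant genes of the other lists (or the whole list, for male markers) and the 3 best correlated genes. Not all of these are named in the text. Only some are for the oocyte and Argonaute lists, and none for muscle, neuron and intestine. Neighbours described in words were chosen after their values were seen. Members and lists were chosen with earlier results of these data known. The mRNA comparison of the genotypes at 25°C was planned as a test and is given for the 3 genes without one, because its libraries were used in their choice. Python 3.11.15, pandas 2.3.3 and scipy 1.17.1 were used.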

Additional observations from a re-analysis of the deposited data

Results flagged for a closer look

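The small RNA response of C15H11.1 to temperature differed between the genotypes by a test of that difference itself, the interaction term of the edgeR fit. The log2 fold change between 25°C and 20°C was 3.07 in wild-type and 0.78 in *mut-16*, and the difference was -2.29 (standard error 0.63, adjusted p = 0.00411). It kept its direction and stayed under an adjusted p of 0.0356 in each of the 12 fits with a single library left out. The wild-type libraries at 20°C on which it rests had 1, 5.28 and 2 counts. The cause was not tested.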

How the results depend on the processing

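In mRNA-seq at 25°C all 3 genes kept their direction under every alternative that fitted them, with log2 fold changes between 2.12 and 3.78 when single libraries were left out. A minimum of 10 counts in every library removed all 3 there, and removed F57F4.1 and C15H11.1 in small RNA-seq. On *clp-8* alone the number of calls was then 1 for heat in wild-type, 1 for heat in *mut-16*, 1 for the genotypes at 20°C, 1 at 25°C and 0 for the difference between heat responses, against 3, 2, 3, 2 and 1 with all 3 genes. A fit of only the wild-type groups did not test F57F4.1. With microRNA counts as the scaling, where 1 of 258 genes held 77.5 to 91.6% of the counts, 1 gene was called for heat in wild-type (C15H11.1) and 1 for the genotypes at 25°C (*clp-8*). The 1 call for heat in *mut-16* was F57F4.1 in the lower direction (adjusted p = 0.0276 by edgeR), which had no call with TMM. The log2 fold changes for heat in *mut-16* turned to -0.84 for C15H11.1, -0.58 for *clp-8* and -1.25 for F57F4.1, and F57F4.1 between the genotypes at 25°C turned to -1.09. With no filter, heat in *mut-16* kept 1 call. With single libraries left out, the calls for heat in *mut-16* ran from 0 to 2. The cause of these shifts was not tested beyond the genes removed by a filter. The order of the 4 groups in mRNA held for all 3 genes under TMM-scaled totals and with any library left out. These mRNA libraries were used in the choice of the genes, so neither this order nor the mRNA direction above is a test of the pattern.

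The replicate numbers were not taken as pairs. Same-numbered libraries had correlated deviations from the group means between -0.0765 and 0.189 in mRNA-seq and between -0.133 and 0.0819 in small RNA-seq. At most 5 of 6 libraries in a comparison were best correlated with their own number. With the replicate block, F57F4.1 lost its call for small RNAs with heat in wild-type (1.35, adjusted p = 0.0573 by edgeR), and no other call of the 3 genes changed. The low counts in wild-type at 20°C limit what can be said of the size of each rise.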
